A study of Mus musculus with 16 samples.

Results

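The cells described here are the cardiomyocytes of both heart fields in chimeric mouse embryos, taken as all singlets whose transferred atlas label was Cardiomyocytes FHF 1, FHF 2, SHF 1 or SHF 2 (first and second heart field, with a number that the atlas gives). There were 588 such cells among 37841 analysed cells. FHF 1 held 265 of them, FHF 2 held 98, SHF 1 held 125 and SHF 2 held 100. The labels were transferred by expression and their cells differ widely, so levels are given for each label, whereas the genotype fits, the mapped stage and the mitochondrial share also use the 4 labels together.

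The chimeras were made by placing *Stat3* null embryonic stem cells (ESCs) of CD1 background, marked by a ubiquitous nuclear tdTomato transgene, into WT CD1 blastocysts. Embryos of 3 stages (E7.5 to E9.5, with E8.5 between) were dissociated and sorted into tdTomato-positive (null) and tdTomato-negative (WT) cells, from which 3′ single-cell RNA libraries were made. Null and WT cells thus shared the same embryos, but every null cell descends from cultured ESCs and every WT cell from the host, so the genotype and this origin cannot be told apart. E7.5 and E8.5 libraries came from pooled embryos. Each genotype had 2 libraries at the first stage, 2 at the second and 4 at the third, named A to D within a group with no meaning in the letter. The study counts 2 embryos at E9.5, so the 4 libraries per genotype of that stage are not 4 independent embryos. Of the 588 cells 275 were null and 313 WT, and 272 of the 275 null-sorted cells held a tdTomato UMI.

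Cardiomyocytes are the contractile cells of the heart. Their thin filament carries cardiac actin (*Actc1*) and the troponin complex, in which *Tnnt2* encodes the subunit that binds tropomyosin, and their thick filament carries myosin with its light chains, of which *Myl7* is the atrial regulatory form that the whole early heart tube uses. The first heart field builds the cardiac crescent and gives most of the left ventricle, whereas the second heart field, a pool of *Isl1*-expressing progenitors, adds cells later at the outflow pole (right ventricle and outflow tract) and at the inflow pole (atria).

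Cells of the 4 labels, called cardiomyocytes here by label alone, were 0.673% to 3.58% of a library. Their summed UMIs ran from 231541 to 2295433 per library, with 5 to 124 cells. Cells held a median of 17351 to 56629 UMIs per library. Levels are given as CPM, the count of a gene among the UMIs summed over the cells of a label in a library, scaled to a total of 1000000 UMIs, for libraries with at least 5 such cells. In a 3′ assay these do not scale with transcript length. No cardiomyocyte barcode occurred in more than 1 library (0), against 488 barcodes among all analysed cells. *Stat3*, the targeted gene, had 59 UMIs in all WT cardiomyocytes (7.46 CPM) and 17 in all null ones (1.94 CPM). It was lower in every null library than in every WT library of its stage, with 1.26, 2.54, 2.13 and 3.25 CPM in the E9.5 null libraries A to D against 5.33, 3.59, 12.3 and 9.08 CPM in the WT ones. The 3′ reads need not cover the deleted exons, so this level does not test the deletion itself, and the gene was too low in cardiomyocytes for the test across genes.

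The 4 labels did not hold equal amounts of the genes that define a cardiomyocyte. Summed over *Tnnt2*, *Myl7* and *Actc1*, the median cell of FHF 2 held 31687 CPM at E8.5 and 25295 at E9.5, and the median cell of SHF 2 held 42499 and 31626. The median SHF 1 cell held 5181 and 5411 CPM. The median FHF 1 cell held only 420 CPM at E7.5, 543 at E8.5 and 267 at E9.5.

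**Figure D1:**
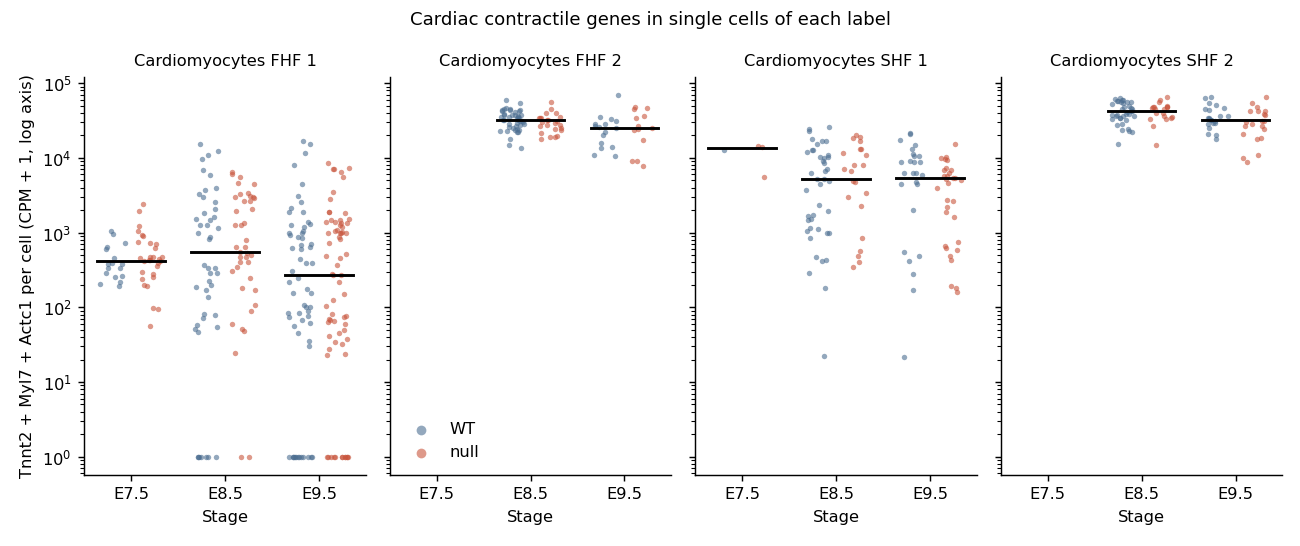
Sum of *Tnnt2*, *Myl7* and *Actc1* in each cell (CPM + 1, log axis) by stage, for the 4 labels. Points are cells, blue WT and red null, and black lines are medians over cells. All FHF 2 and SHF 2 cells at E8.5 lie above 10000 CPM, whereas FHF 1 holds cells at 0 and only 3 cells above 10000 at E8.5 and 3 at E9.5.

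By this sum most FHF 1 cells lay far below the cells of FHF 2 and SHF 2, although most held some of these transcripts. *Tnnt2* was seen in 79.3% and *Myl7* in 80.5% of FHF 1 cells at E8.5, and in 58.0% and 61.8% at E9.5. At E8.5, 9 of 87 FHF 1 cells held none of these transcripts, and at E9.5 25 of 131 held none. Only 3 cells passed 10000 CPM at each of these stages, whereas all 69 FHF 2 cells and all 57 SHF 2 cells did at E8.5. SHF 1 was mixed, with 21 of 64 cells above 10000 CPM at E8.5 and 10 of 57 at E9.5.

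FHF 1 carried progenitor genes beside a low level of contractile ones. *Isl1*, the transcription factor of second-field progenitors, stood at 240, 160, 155 and 176 CPM in the E8.5 libraries (WT A and B, null A and B), and at 112 to 297 CPM over the 8 libraries of E9.5. *Fgf8*, a growth factor of the pharyngeal region, stood at 135, 104, 65.0 and 136 CPM at E8.5. *Tbx1*, the pharyngeal T-box factor, ranged from 27.7 to 44.1 CPM there. These genes were present in both genotypes, and the progenitor list as a whole (8 of 8 members with a UMI) summed to 416 to 653 CPM in WT and 442 CPM in both null libraries at E8.5. SHF 1 libraries held 186 to 333 CPM of the list at that stage. At E9.5 the list was not particular to FHF 1. Over both genotypes it summed to 331 to 585 CPM in FHF 1, 290 to 630 CPM in SHF 1, 193 to 565 CPM in FHF 2 and 116 to 169 CPM in SHF 2.

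FHF 1 held more contractile transcripts than the cells labelled as progenitors. At E8.5 its *Tnnt2* was 705 and 432 CPM in WT A and B and 507 and 377 CPM in null A and B, and cells labelled Cardiopharyngeal progenitors FHF held a median of 12.6 CPM. *Isl1* in those progenitors had a median of 78.1 CPM at E8.5 and 135 at E9.5, below the FHF 1 medians of 168 and 230 CPM. Cells labelled Epicardium held contractile transcripts too, with medians of 211 CPM of *Tnnt2* and 529 CPM of *Myl7* at E8.5. At E9.5 these medians were 118 and 452 CPM, so a low level of contractile transcripts was not particular to a cardiomyocyte label. These comparisons are descriptions, since the labels rest on expression. In ventral hindbrain progenitors, which should lack cardiac genes, *Myl7* was seen in 10.1% of 994 E9.5 cells (median 31236 UMIs per cell) and in 61.8% of the 131 FHF 1 cells (median 28032 UMIs). After thinning each cell to 10000 UMIs the shares were 3.46% and 46.0%.

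The sequences before the 3 defining genes are shown because these genes differed together between the labels. RefSeq promoters (GRCm38.p6, 250 bases before to 50 after the annotated start, in the direction of the gene) were searched on both strands for the CArG box bound by serum response factor, the GATA motif AGATAA, the MEF2 motif and the STAT motif TTCNNNGAA, and matches are in capitals. *Tnnt2* (chr1:135836084-135836383, plus strand, 1 of its annotated starts) held 1 GATA match. The window at another annotated start of *Tnnt2* (chr1:135836739-135837038), not printed here, held 0 matches to any of these motifs. *Myl7* (chr11:5898733-5899032, minus strand) and *Actc1* (chr2:114052826-114053125, minus strand) each held 1 CArG box.
*Tnnt2*: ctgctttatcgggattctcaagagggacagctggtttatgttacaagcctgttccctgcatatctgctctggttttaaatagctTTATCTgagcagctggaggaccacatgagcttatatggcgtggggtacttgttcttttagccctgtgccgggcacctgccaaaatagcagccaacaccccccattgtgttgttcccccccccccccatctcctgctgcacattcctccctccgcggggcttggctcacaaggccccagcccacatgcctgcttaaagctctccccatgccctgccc
*Myl7*: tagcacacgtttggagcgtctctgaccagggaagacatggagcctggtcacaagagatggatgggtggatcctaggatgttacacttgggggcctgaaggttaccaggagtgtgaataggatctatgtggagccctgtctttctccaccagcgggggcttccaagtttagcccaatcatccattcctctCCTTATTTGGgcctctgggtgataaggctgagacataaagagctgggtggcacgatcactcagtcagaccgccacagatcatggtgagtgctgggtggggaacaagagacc
*Actc1*: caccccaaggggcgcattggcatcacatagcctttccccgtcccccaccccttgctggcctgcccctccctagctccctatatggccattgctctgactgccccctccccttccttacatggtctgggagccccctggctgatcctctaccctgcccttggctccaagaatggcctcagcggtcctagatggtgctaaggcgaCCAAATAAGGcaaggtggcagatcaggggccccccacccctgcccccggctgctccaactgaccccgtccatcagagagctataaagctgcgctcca
The matches began 166 bases before the start of *Tnnt2*, 61 before that of *Myl7* and 47 before that of *Actc1*. Of 32851 promoters of this length 1.63% held a CArG box, 11.2% a GATA match, 1.86% a MEF2 match and 8.30% a STAT match. None of the 3 printed windows held the letters of the STAT motif.

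At E9.5 FHF 1 also held cells with skeletal muscle transcripts. The myogenic factors *Myf5*, *Myod1*, *Myog* and *Myf6*, which commit cells to skeletal muscle, had at least 1 UMI in 18 of 131 FHF 1 cells, and at least 3 UMIs in all 18. In SHF 1 the number was 4 of 57, in FHF 2 it was 1 of 29 and in SHF 2 it was 0 of 43, which allows a share of up to 6.98%. At E8.5 0 of 87 FHF 1 cells held one, which allows a share of up to 3.45%. These limits are for cells with such a UMI, pooled over libraries and for counting error only, and not for cells that express the genes.

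The share of each sarcomere gene of FHF 1 that these 18 cells carried at E9.5 varied widely. They held 21.1% of its UMIs but 71.4% of its *Actc1* UMIs, 61.3% of its *Ttn* (titin) UMIs and 86.5% of its *Tnnt1* (slow skeletal troponin T) UMIs, and 47.0% of its *Tnnt2*, 30.4% of its *Tnni1*, 26.8% of its *Acta2* and 11.3% of its *Myl4* UMIs. *Actc1* stood at 2532 CPM in them and at 272 CPM in the other 113 cells. *Tnnt2* was at 685 against 207 CPM and *Ankrd1* at 179 against 46.4 CPM. Other cardiac genes were lower in the 18 cells, where *Myl7* was at 16.4 CPM against 379 CPM in the others, and *Nkx2-5*, the cardiac homeobox factor, was at 0 against 105 CPM. *Isl1* was at 23.4 against 269 CPM.

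The cells with myogenic UMIs were 13 of 61 WT and 5 of 70 null FHF 1 cells. Per library their share was 33.3%, 11.1%, 42.9% and 10.3% in WT A to D and 7.69%, 0%, 11.1% and 22.2% in null A to D, so that the genotypes overlapped. Null B held 0 such cells of 26, which allows a share of up to 11.5%. The mean share was 24.4% ± 16.3 (SD, n = 4) in WT and 10.3% ± 9.23 in null, a difference within the spread of the libraries (p = 0.229, exact two-sided permutation test, smallest possible p 0.0286, chosen after the values were seen).

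Chamber and field genes set FHF 2 apart from both SHF labels. In FHF 2 the ventricular light chain *Myl2* had a median of 977 CPM over the 4 E8.5 libraries (714 to 1294), the stretch-responsive natriuretic peptide *Nppa* 1325 CPM (378 to 2555), the ventricular factor *Irx4* 42.9 CPM and the myosin *Myh7* 2067 CPM. SHF 2 held 171 CPM of *Myl2* and 112 CPM of *Nppa*. This is the ventricular set, and all 4 of the E8.5 libraries of FHF 2 had more *Myl2* than any E8.5 library of SHF 2, whose highest was 408 CPM.

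Inflow and atrial genes marked both SHF labels. *Nr2f2*, the nuclear receptor of atrial identity, had a median of 277 CPM in SHF 1 and 69.7 in SHF 2 at E8.5, but 6.51 in FHF 2. *Vsnl1*, a calcium sensor of the sinus node region, stood at 113, 239 and 2.65 CPM in the same order. *Wnt2*, a ligand of the posterior second field, stood at 310, 355 and 89.6 CPM, and *Shox2*, the sinus venosus homeobox factor, at 68.9, 47.4 and 2.24 CPM.

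*Tbx5* and *Hcn4*, which are often used as genes of the first field and which also belong to the inflow, were likewise higher in the SHF labels. *Tbx5* had E8.5 medians of 127 CPM in SHF 1, 152 CPM in SHF 2 and 37.1 CPM in FHF 2, and in that stage the lowest SHF 1 or SHF 2 library (110 CPM) was above the highest FHF 2 library (45.1 CPM). *Hcn4*, the pacemaker channel, stood at 54.0, 53.2 and 20.5 CPM. FHF 2 in turn held *Tdgf1*, a Nodal coreceptor found in the outflow tract, at 154 CPM against 2.82 in SHF 1 and 3.43 in SHF 2. SHF 1 and SHF 2 differed in the contractile genes, as *Myh6*, the atrial myosin, was at 364 and 1757 CPM, and *Tnni3*, the mature cardiac troponin I, at 30.2 and 927 CPM.

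**Figure D2:**
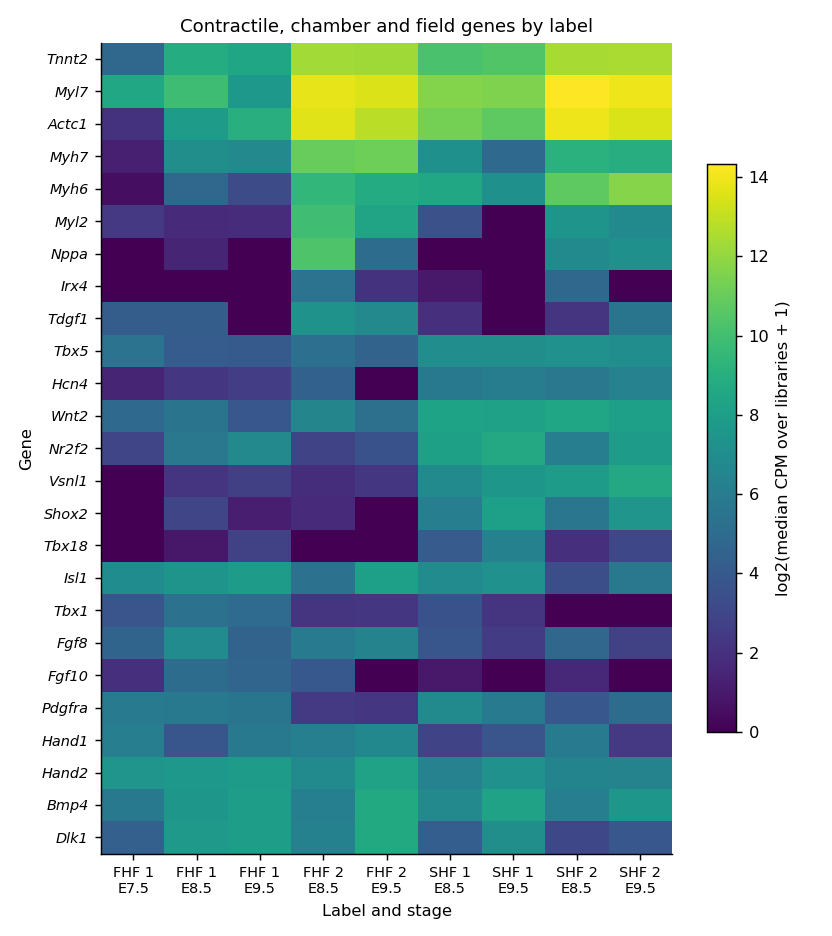
Heat map of contractile, chamber and field genes by label and stage, as log2 of the median CPM over libraries plus 1. Rows are genes and columns are labels at each stage with libraries of at least 5 cells. *Myl2*, *Nppa* and *Irx4* stand out in FHF 2 at E8.5, and *Nr2f2*, *Vsnl1*, *Wnt2* and *Shox2* in SHF 1 and SHF 2.

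The atlas stage onto which the cells were mapped differed between the labels. It was transferred from the same atlas as the labels, so it is not independent of them. At E8.5, 59 of 69 FHF 2 cells and 51 of 57 SHF 2 cells were mapped to their own stage or a later one, but 24 of 87 FHF 1 and 13 of 64 SHF 1 cells were. At E9.5 the FHF 1 cells had a mean mapped stage of 8.28 ± 0.349 (SD over 131 cells), and 0 of 131 FHF 1, 1 of 29 FHF 2, 0 of 57 SHF 1 and 6 of 43 SHF 2 cells reached 9.5. The mapped stages of the genotypes lay close, but the WT means did not rise from E8.5 (8.475) to E9.5 (8.42). This measure therefore cannot decide whether null cells lagged. The library means were 8.43 in null and 8.42 in WT at E9.5 (difference 0.0087 days, p = 0.971, exact two-sided permutation test), and 8.473 and 8.475 at E8.5 (p = 0.667, with 0.333 the smallest p that 2 against 2 libraries can give).

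Whether null cells reach each label as often as WT cells was asked from the share of a library that a label took. No cardiomyocyte label was called by edgeR's quasi-likelihood test on cell numbers, fitted over 68 cell types at E8.5 and 71 at E9.5. Over all types the test called 3 of 27 at E7.5, 0 of 68 at E8.5 and 1 of 71 at E9.5. The lack of a call in these labels is therefore no result about cardiomyocytes. For FHF 1 the share at E8.5 was 0.550% and 0.837% in WT A and B and 0.626% and 1.48% in null A and B, a log2 fold change (null over WT) of 0.51 ± 0.58 (SE). At E9.5 it was 0.292%, 0.341%, 0.735% and 0.733% in WT A to D and 0.601%, 1.08%, 0.565% and 0.582% in null A to D, a log2 fold change of 0.46. The groups overlapped at both stages.

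For FHF 2 the log2 fold changes were −0.21 at E8.5 and −0.08 at E9.5, for SHF 1 −0.37 and 0.62, and for SHF 2 −0.39 and 0.15. The adjusted p of edgeR ranged from 0.980 to 0.996 over all labels and stages. At E7.5 FHF 1 took 0.692% and 0.673% of the WT libraries and 1.15% and 1.39% of the null ones, which do not overlap, but the fitted log2 fold change of 0.49 ± 0.83 did not pass.

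**Figure D3:**
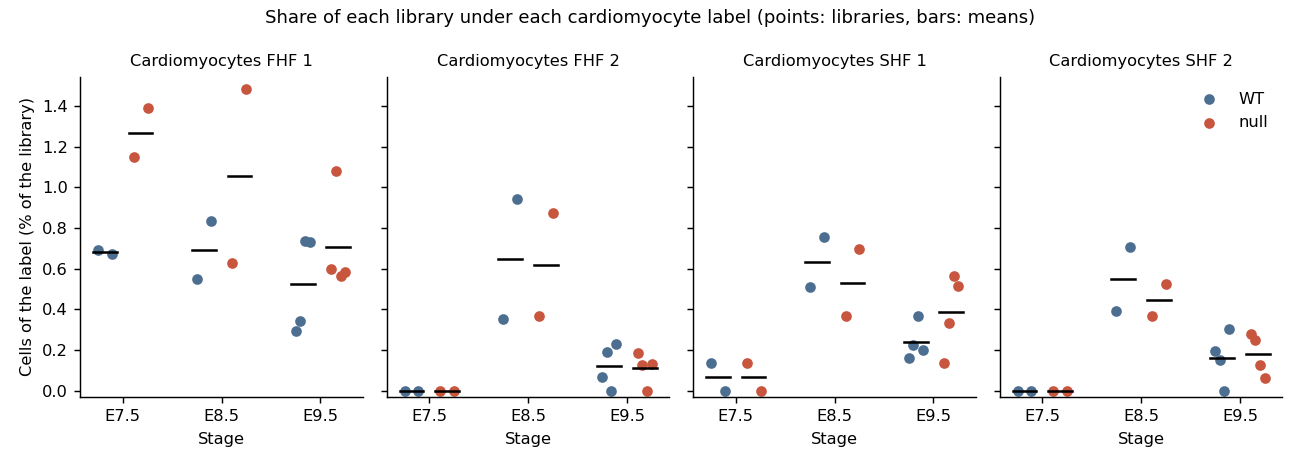
Share of each library taken by each cardiomyocyte label (%), by stage. Points are libraries, blue WT and red null, and bars are group means. At E9.5 WT C has no FHF 2 or SHF 2 cell and null B has the highest FHF 1 share, 1.08%.

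The make-up within the cardiomyocytes was not shown to differ. Cells with an SHF label were 47.6% ± 3.42 (SD, n = 2) of WT and 38.3% ± 5.85 of null cardiomyocytes at E8.5 (p = 0.333, the smallest possible, exact permutation test). At E9.5 they were 39.9% ± 7.69 and 41.8% ± 10.4 (n = 4, p = 0.771, exact two-sided permutation test). FHF 2 and SHF 2 together took 27.5% ± 18.4 of WT and 21.1% ± 12.4 of null cardiomyocytes at E9.5 (p = 0.571, exact two-sided permutation test). WT C had 0 of these cells among 21 cardiomyocytes, which allows a share of up to 14.3%. The median mitochondrial share of UMIs at E9.5 was 1.56% ± 0.276 in WT and 1.18% ± 0.429 in null libraries (p = 0.143, exact two-sided permutation test), and null D was lowest at 0.555%.

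For the genotype effect on genes, UMIs were summed over the 4 labels, since no label had more than 15 cells in 2 libraries of each genotype. Calls needed an absolute log2 fold change over 1 and a Benjamini-Hochberg adjusted p under 0.05 in edgeR's quasi-likelihood test. At E7.5 the WT libraries held too few cells for a fit. In such sums fewer cells of a label and less RNA per cell cannot be told apart. FHF 1, low in contractile genes, gave 87 of the 277 cells at E8.5 and 131 of the 260 at E9.5. At E8.5 1 of 8526 genes was called (0.0117%), and at E9.5 4 of 7837 genes (0.051%). In GRCm38 these lie, as whole genes, with *Grb10* at chr11:11930508-12038683, *Akr1e1* at chr13:4590750-4609174, *Cwc22* at chr2:77881159-77946375, *Zdbf2* at chr1:63273265-63314576 and *Slc38a4* at chr15:96994820-97055956.

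The contractile genes were not among them. *Tnnt2* stood at 2759 and 3222 CPM in WT A and B and at 2771 and 2649 CPM in null A and B at E8.5, a log2 fold change of −0.14 ± 0.11 (SE). At E9.5 it stood at 3061, 2450, 725 and 2269 CPM in WT A to D and at 2400, 1983, 1108 and 1396 CPM in null A to D, a log2 fold change of −0.31 ± 0.47. The low value is that of WT C, the library without FHF 2 and SHF 2 cells. *Myl7* had log2 fold changes of −0.22 ± 0.11 and −0.34 ± 0.56 at the 2 stages, and *Actc1* −0.35 ± 0.11 and −0.47 ± 0.36. Of the markers of other cell types, those of skeletal muscle, nerve and endothelium overlapped between the genotypes in the E9.5 sums, whereas the blood list did not (given with the haem genes). The skeletal muscle list (6 of 6 members with a UMI) summed to 122 to 894 CPM in WT and 16.1 to 449 CPM in null, the neural list to 202 to 654 CPM in WT and 150 to 473 CPM in null, and the endothelial list to 66.6 to 113 CPM in WT and 81.1 to 87.6 CPM in null. In the E8.5 sums the blood list (given with the haem genes) and the lists that follow did not overlap. With only 2 libraries per genotype at E8.5, groups part by chance more easily than at E9.5. The numbers of such lists are therefore not compared between the stages. The cardiomyocyte list (8 of 8) summed to 27472 to 30174 CPM in WT and 23938 to 24731 CPM in null, the neural list (6 of 6) to 127 to 135 and 77.1 to 114 CPM, the endothelial list (9 of 9) to 94.1 to 99.5 and 86.9 to 88.7 CPM, and the cushion list (7 of 7) to 158 to 171 and 190 to 216 CPM. The endodermal list (6 of 7, *Afp* at 0) summed to 8.98 to 23.96 CPM in WT and 8.07 to 8.68 CPM in null, and the skeletal muscle list (3 of 6, *Myod1*, *Myog* and *Myf6* at 0) to 0.748 to 1.74 and 0 to 0.621 CPM. This skeletal muscle sum rested on at most a few UMIs per library. The part of these lists in the genotype results was not tested.

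None of the lists of the contractile apparatus held a called gene, where 0.0117% of all genes were called at E8.5 and 0.051% at E9.5, so that a list of this size could hold 0 with no difference from other genes. Of the thin filament and troponin list 14 of 14 members were tested at both stages, with a median log2 fold change of −0.21 at E8.5 and −0.38 at E9.5, against 0.00 over all genes tested. For thick filament and myosin light chains the medians were −0.17 (10 of 11 tested) and −0.34 (9 of 11). Calcium handling and ion channels had −0.18 at both stages with 0 of 14 and 0 of 12 called. The cardiac transcription factors had −0.02 and −0.19 with 0 of 24 and 0 of 22 called, and 43 subunits of oxidative phosphorylation −0.00 and 0.03 with 0 called.

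STAT3 is the transcription factor that cytokine receptors with the gp130 subunit activate through Janus kinases. Of its listed response genes 0 of 13 tested were called at E8.5 (median log2 fold change −0.07) and 0 of 12 at E9.5 (median 0.07), beside 0.0117% and 0.051% of all genes, and these counts are no result about the list. *Socs3*, the feedback inhibitor of the pathway, was too low to be tested, at 2.61 to 5.59 CPM at E8.5 and 2.67 to 13.6 CPM at E9.5 over both genotypes. *Junb* had log2 fold changes of 0.27 ± 0.27 and 0.74 ± 0.32, and *Mcl1*, the survival factor, 0.18 ± 0.15 and 0.04 ± 0.14. Of the pathway itself 7 and 6 members could be tested and 0 were called. *Il6st*, which encodes gp130, had 0.40 ± 0.24 and −0.13 ± 0.24.

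The largest difference at E9.5 was in *Grb10*, an imprinted adaptor protein that restrains growth signalling. It stood at 587, 539, 540 and 582 CPM in WT A to D and at 1.26, 9.31, 5.33 and 11.9 CPM in null A to D, a log2 fold change of −6.44 ± 0.33 (edgeR adjusted p = 4.1e-05). Every null library was below every WT library. In 1 edgeR fit over both stages the log2 fold change was −6.45 and the call was lost (adjusted p = 0.267), and it was kept in the other 19 alternatives. At E8.5 the null libraries parted, with 6.83 CPM in null A and 446 CPM in null B against 475 and 378 CPM in WT, and the gene was not called (log2 fold change −0.94 ± 1.93).

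*H19*, an imprinted noncoding RNA, also differed between the E8.5 null libraries. At E9.5 it stood at 1119, 1262, 1666 and 1144 CPM in WT A to D and at 5.67, 5.93, 2.13 and 83.5 CPM in null A to D, and was not called (log2 fold change −5.88 ± 0.94, edgeR adjusted p = 0.277). At E8.5 null A held 384 CPM and null B 7.71 CPM, against 1096 and 807 CPM in WT, so that null A was low in *Grb10* and null B in *H19*. All other cells of these 2 libraries had the same order, with 244 and 23.0 CPM of *H19* and 12.6 and 256 CPM of *Grb10*. Over the list of imprinted genes 1 of 28 tested members was lower at E9.5 (against 0.0255% of all genes called lower) and 0 were higher, and the median log2 fold change was −0.19. *Zdbf2*, described with the higher genes, is not a member of that list. *Igf2*, the growth factor gene next to *H19*, was 747, 574, 622 and 510 CPM in WT and 912, 1146, 1013 and 1100 CPM in null, a log2 fold change of 0.76 ± 0.12 that is under the limit of 1.

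*Akr1e1*, an aldo-keto reductase gene, was the other lower gene at E9.5. It stood at 20.004, 21.5, 34.5 and 17.5 CPM in WT and at 8.82, 3.39, 3.20 and 1.08 CPM in null, a log2 fold change of −2.30 ± 0.41 (edgeR adjusted p = 0.0325). The E8.5 null libraries held 3.72 and 2.89 CPM against 17.2 and 19.6 in WT, a log2 fold change of −2.43 ± 0.43 that did not pass (edgeR adjusted p = 0.0891). The call at E9.5 was lost without any one of the 4 WT libraries or of null B, C or D, at log2 fold changes between −2.46 and −2.05.

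*Cwc22*, a splicing factor gene, and *Zdbf2*, an imprinted zinc finger gene, were higher in null cells. *Cwc22* stood at 36.01, 17.95, 25.9 and 33.1 CPM in WT and at 151, 173, 163 and 131 CPM in null at E9.5, a log2 fold change of 2.39 ± 0.17 (edgeR adjusted p = 9.4e-07). *Zdbf2* stood at 86.7, 73.6, 93.8 and 68.7 CPM in WT and at 170, 162, 171 and 188 CPM in null, a log2 fold change of 1.09 ± 0.13 (edgeR adjusted p = 0.00049). At E8.5 the groups did not overlap for either gene, but the changes of 1.17 ± 0.25 and 0.92 ± 0.20 were not called.

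*Slc38a4*, an imprinted amino acid transporter gene, was the 1 gene called at E8.5. It stood at 61.4 and 55.3 CPM in WT and at 125 and 120 CPM in null, a log2 fold change of 1.08 ± 0.16 (edgeR adjusted p = 0.0246). At E9.5 its change was 0.80 ± 0.18 and was not called. The E8.5 call was lost in 9 of 17 alternatives, among them DESeq2 (1.08, adjusted p = 0.130), 1 edgeR fit over both stages (1.07, adjusted p = 0.308) and the fit without WT B (1.01), while the log2 fold change stayed between 0.90 and 1.21 in all 17. Leaving out null A gave 30 called genes at E8.5 and leaving out null B gave 6, and the same without a WT library gave 7 (A left out) and 4 (B left out).

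**Figure D4:**
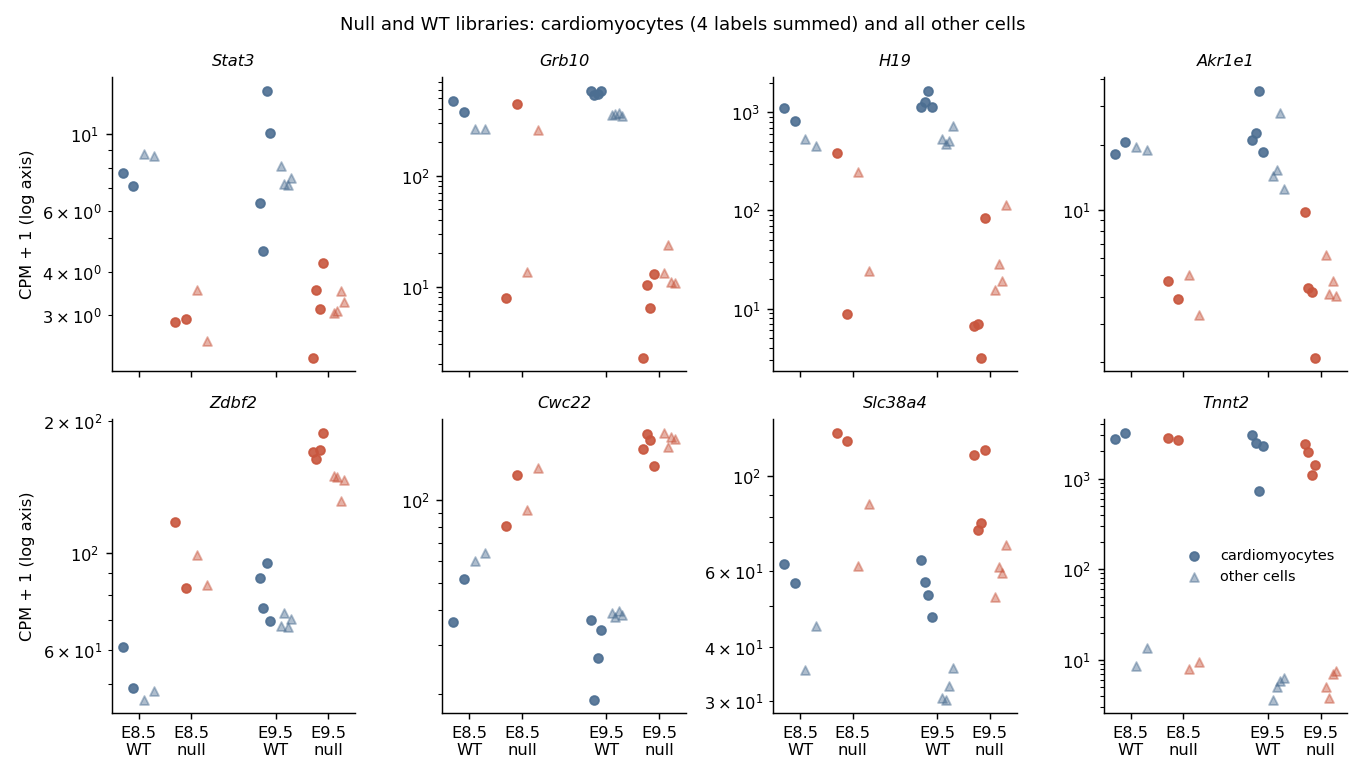
CPM + 1 (log axes) of *Stat3*, *Grb10*, *H19*, *Akr1e1*, *Zdbf2*, *Cwc22*, *Slc38a4* and *Tnnt2* by stage and genotype. Points are libraries, circles cardiomyocytes and triangles all other cells, blue WT and red null. For *Grb10* in cardiomyocytes one E8.5 null library (446 CPM) lies near the WT level and the other (6.83 CPM) far below it, whereas for *H19* both lie below WT, at 384 and 7.71 CPM.

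The genes called at E9.5 were called outside the cardiomyocytes too. In all other cells at E9.5, where 89 of 14807 genes were called (0.601%), *Grb10* had a log2 fold change of −4.71, *Akr1e1* −2.12, *Zdbf2* 1.05 and *Cwc22* 2.12, and all 4 were called. The test of the difference between cardiomyocytes and other cells called 3 of 13129 genes at E8.5 (0.0229%) and 2 of 14137 at E9.5 (0.0141%), and did not call these genes (*Grb10* −1.75 ± 0.39, edgeR adjusted p = 0.742, *Cwc22* 0.28 ± 0.17 at E9.5).

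The E8.5 differences were in genes at a low CPM in 1 of the 2 sets of cells. *Mybpc3*, a thick filament protein, was at 146 and 149 CPM in WT and 143 and 119 CPM in null cardiomyocytes at E8.5, whereas other cells held 3.70 and 3.71 CPM in WT and 1.38 and 0.841 in null. The genotype effects differed by 1.53 ± 0.23 (SE, log2 scale, edgeR adjusted p = 3.5e-05). *Hspb2*, a heat shock protein of muscle, had a difference of −1.06 ± 0.18, with 169 to 224 CPM in cardiomyocytes and 1.802 to 5.42 CPM in other cells. This call was lost without WT B (−0.92, edgeR adjusted p = 0.131), and without null B the difference was under the limit of 1 (−0.93, edgeR adjusted p = 0.00395). *Tcf15*, a mesodermal factor, differed by −3.13 ± 0.66, with 12.7 and 9.15 CPM in WT and 1.86 and 0 CPM in null cardiomyocytes. Its call was lost without null B (−2.38), and without null A, which left the library at 0 CPM, the difference was −11.4. The call of *Mybpc3* was kept in each of the 4 fits that left out 1 library.

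At E9.5 *Blvrb* and *Cpox*, genes of haem metabolism, differed by 2.08 ± 0.28 and 1.45 ± 0.21. *Blvrb* was at 15.6 to 21.3 CPM in WT and 14.1 to 26.7 CPM in null cardiomyocytes, and at 28.4 to 70.2 CPM in WT and 11.7 to 14.9 CPM in null other cells. The blood marker list moved with genotype in the same libraries. Haemoglobin *Hba-x* stood at 1758 to 5511 CPM in the other cells of E9.5 WT libraries and at 64.3 to 178 CPM in those of null libraries. In cardiomyocytes the 7 blood genes summed to 195 to 867 CPM in WT and 5.93 to 39.0 CPM in null at E9.5, with *Gata1* at 0, and at E8.5 to 1043 to 1058 CPM in WT and 210 to 1031 CPM in null (7 of 7 with a UMI), and their part in any result was not tested. Leaving out 1 library gave 37 (null A), 14 (null B), 20 (WT A) and 22 (WT B) called differences at E8.5, and at E9.5 it gave 4 (null A or null B), 9 (null C), 7 (null D) and 5 (WT C).

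Fits of each label alone, with libraries of at least 5 cells, were added after the data were seen. FHF 1 had 3 of 5676 genes called at E8.5 (0.0529%) and 3 of 5975 at E9.5 (0.0502%). FHF 2 had 0 of 4523 called at E8.5 (0%, with 148 genes at an unadjusted p under 0.05), and it could not be fitted at E9.5. SHF 1 had 0 of 4714 called at E8.5 (0%, with 162 at an unadjusted p under 0.05) and 2 of 3439 at E9.5 (0.0582%). SHF 2 had 12 of 3908 called at E8.5 (0.307%) and 4 of 3832 at E9.5 (0.104%).

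In FHF 1 *Ankrd1*, a titin-associated protein induced by stretch, was lower in null cells at E8.5. It stood at 209 and 110 CPM in WT and at 14.4 and 20.8 CPM in null, a log2 fold change of −3.13 ± 0.38 (edgeR adjusted p = 0.00017). *Tmem14c*, a mitochondrial transporter used in haem synthesis, was at 85.4 and 92.8 CPM in WT and 226 and 203 CPM in null (1.27 ± 0.22), and *Cwc22* rose (1.93 ± 0.33). At E9.5 *Ankrd1* overlapped between the genotypes, with 302 CPM in WT C and 6.26 to 17.6 CPM in the other WT libraries. The E9.5 calls were *Grb10*, *Zdbf2* and *Cwc22*. In the FHF 1 libraries of E8.5 the cushion list (7 of 7) summed to 215 to 282 CPM in WT and 343 to 377 CPM in null, and the endothelial list (7 of 9, *Pecam1* and *Nfatc1* at 0) to 107 to 137 and 83.2 to 86.6 CPM. Neither list overlapped between the genotypes, and their part in the FHF 1 calls was not tested.

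In SHF 2 at E8.5, 4 of 27 tested members of the S and G2/M list were lower in null cells, against 0.205% of all genes called lower. These were *Cenpf*, *Plk1*, *Ccnb1* and *Cdk1*. *Cenpf*, a kinetochore protein, stood at 312 and 319 CPM in WT and at 179 and 75.6 CPM in null (−1.15 ± 0.26). *Nusap1*, a spindle protein that is not a member of the list, stood at 182 and 130 CPM in WT and at 23.6 and 20.6 CPM in null, a log2 fold change of −2.70 ± 0.42 (edgeR adjusted p = 3.6e-07). *Plk1*, the polo kinase, stood at 51.4 and 61.7 against 13.5 and 6.87 CPM, *Ccnb1* (cyclin B1) at 147 and 123 against 60.7 and 20.6 CPM, and *Cdk1* at 213 and 141 against 91.1 and 34.4 CPM. The median log2 fold change of the list was −0.65 against 0.01 over all genes. At the same stage 0 members were called in FHF 1 (median −0.05), FHF 2 (−0.02), SHF 1 (−0.21), FHF 2 with SHF 2 (−0.26) or the 4 labels summed (−0.12). Those fits called 0.0529%, 0%, 0%, 0% and 0.0117% of all genes in this order, so their counts of 0 are no result about the list. Whether SHF 2 differed from the other labels was not tested. Null A and null B had 14 and 6 SHF 2 cells.

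Markers of other cell types moved with genotype in the same SHF 2 libraries, without overlap between the genotypes. The epicardial list (4 of 6 members with a UMI, *Wt1* and *Upk3b* at 0) summed to 34.3 to 49.0 CPM in WT and 87.7 to 124 CPM in null. The neural list (6 of 6) summed to 100 to 120 CPM in WT and 48.1 to 81.0 CPM in null, the progenitor list (8 of 8) to 51.4 to 61.7 and 33.7 to 41.2 CPM, and the cushion list (7 of 7) to 63.9 to 106 and 43.9 to 55.0 CPM. The endothelial list (6 of 9, *Pecam1*, *Nfatc1* and *Plvap* at 0) summed to 89.4 to 110 and 74.2 to 82.5 CPM, and the endodermal list (4 of 7, *Foxa2*, *Sox17* and *Afp* at 0) to 10.3 to 36.2 and 0 to 3.37 CPM. Their part in the genotype difference was not tested.

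The SHF 2 genes higher in null cells at E8.5 were *Hmga2*, *Fdps*, *Nrgn* and *Mvd*. *Fdps* and *Mvd* encode enzymes of the mevalonate pathway, and stood at 141 and 102 against 334 and 192 CPM and at 24.003 and 25.5 against 84.3 and 96.2 CPM (log2 fold changes 1.24 ± 0.26 and 1.84 ± 0.41). At E9.5 none of these was called in SHF 2. *Cdk1* then stood at 52.0 and 40.5 CPM in WT and at 44.95 and 9.31 CPM in null. The 4 calls of E9.5 were *H19*, *Grb10*, *Calca* and *Hist1h1b*, all lower in null cells. *Calca*, which encodes calcitonin and its related peptide, stood at 147 and 151 CPM in WT and at 38.0 and 14.0 CPM in null (−2.43 ± 0.41, edgeR adjusted p = 0.0216). Some marker lists were apart by genotype in these E9.5 libraries too, with the cardiomyocyte list (8 of 8) at 51447 to 56863 CPM in WT and 41915 to 46787 CPM in null, the neural list (6 of 6) at 155 to 222 and 55.9 to 104 CPM, and the epicardial list (5 of 6, *Upk3b* at 0) at 4.73 to 22.1 and 31.1 to 93.1 CPM. The blood list (4 of 7) was at 633 to 648 CPM in WT and 9.31 to 31.1 CPM in null. The endodermal list (6 of 7, *Sox17* at 0) was at 4.73 to 7.36 and 9.31 to 13.8 CPM, and the skeletal muscle list (2 of 6, *Myf5*, *Myod1*, *Myog* and *Myf6* at 0) at 3.68 to 4.73 and 0 CPM. The endodermal and skeletal muscle sums rested on at most a few UMIs per library. Their part in these calls was not tested.

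Whether the genotype effect differed between E8.5 and E9.5 was tested as an interaction on the 4 labels summed. It called 0 of 9079 genes by edgeR (0%, with 221 at an unadjusted p under 0.05) and 0 by DESeq2. Without E8.5 null A it called 2.

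The stage difference itself was examined in WT cells of each label, E9.5 against E8.5. FHF 1 had 21 of 6163 genes called (0.341%), FHF 2 25 of 4094 (0.611%), SHF 1 98 of 4258 (2.3%) and SHF 2 89 of 4001 (2.22%). The FHF 2 and SHF 2 fits rest on 2 libraries a stage, and the numbers of genes are not compared between labels.

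In FHF 1, 19 of the 21 genes were lower at E9.5. *Fgf8* fell from 135 and 104 CPM to 28.2, 28.8, 22.0 and 21.3 CPM (log2 fold change −2.39 ± 0.28, edgeR adjusted p = 0.00033). The immediate early genes *Fos* and *Fosb* fell, with log2 fold changes of −2.37 and −4.13, and *Hopx*, a homeobox protein of committed cardiac cells, from 85.4 and 44.5 CPM to 3.66 to 14.1 CPM. The glucose transporter gene *Slc2a3* fell by 2.23. *Myf5* was at 0 in both E8.5 libraries and at 56.3, 14.4, 71.4 and 28.8 CPM at E9.5, and *Ptn*, a secreted growth factor, rose by 1.37. The skeletal muscle list summed to 0 to 2.75 CPM at E8.5 (1 of 6 members with a UMI, *Myf5*, *Myod1*, *Myog*, *Pax7* and *Myf6* at 0) and to 193 to 1324 CPM at E9.5 (6 of 6), and the neural list (6 of 6 at both) to 92.8 to 165 and 205 to 941 CPM, in WT cells. Neither list overlapped between the stages, and their part in the stage difference was not tested.

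The number of FHF 1 genes was 98 without E9.5 WT D, 34 without E9.5 WT C and 13 without E9.5 WT A. In null FHF 1 cells 47 genes were called (0.738%), and 9 of these were among the WT calls in the same direction (42.9% of the WT calls, of which 19 of 21 were tested in null cells, and 19.1% of the null ones), including *Fos*, *Slc2a3* and *Igfbpl1*. *Fgf8* went from 65.0 and 136 CPM to 10.1 to 65.4 CPM in null cells and was not called there. In null FHF 1 the skeletal muscle list was at 0 CPM at E8.5 and at 31.7 to 400 CPM at E9.5, and the neural list went from 78.6 to 148 CPM to 159 to 371 CPM. The blood list went from 203 to 1126 CPM to 5.01 to 35.0 CPM. None of these lists overlapped between the stages, and their part was not tested.

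In FHF 2, 1 of 8 tested members of the first-field and ventricle list was lower at E9.5 (against 0.22% of all genes called lower), and 3 of 10 of the second-field and outflow list were higher (against 0.391% called higher). The medians of the lists were −0.94 and 1.19 on the log2 scale, against −0.01 over all genes. *Irx4*, the member that was lower, fell from 44.1 and 67.5 CPM to 0 and 7.56 CPM (edgeR adjusted p = 0.0306), and *Cacna2d2*, a calcium channel subunit, from 75.6 and 54.3 CPM to 18.8 and 3.78 CPM. *Actc1* fell from 13773 and 13082 CPM to 5434 and 8436 CPM (−1.05 ± 0.20, edgeR adjusted p = 0.0269). *Bmp4*, a ligand of the outflow and pharyngeal region, rose from 104 and 71.5 CPM to 612 and 302 CPM (2.24 ± 0.33).

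*Hand2* rose from 123 and 106 CPM to 301 and 291 CPM (1.28 ± 0.25), *Dlk1* by 2.13, *Rspo3* by 1.93, the chemokine *Cxcl12* by 2.31, the matrix protein *Tnc* by 3.39 and the homeobox factor *Tlx1* by 4.18. The 3 members of the outflow list were *Bmp4*, *Hand2* and *Dlk1*. *Nppa* (378 and 2555 CPM at E8.5, 0 and 49.1 CPM at E9.5) and *Isl1* (34.6 and 17.2 CPM, then 358 and 117 CPM) did not overlap between the stages but were not called, at edgeR adjusted p = 0.541 and 0.0654. The only null library with enough FHF 2 cells at E9.5, null A, held 3.24 CPM of *Irx4*, 414 CPM of *Bmp4* and 333 CPM of *Hand2*. The count was 68 without E9.5 WT B (5 cells), 159 without WT D (9 cells) and 40 without E8.5 WT A.

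Marker lists moved with stage in the same WT libraries of FHF 2. The cardiomyocyte list (8 of 8) summed to 44715 to 46509 CPM at E8.5 and 30364 to 37617 CPM at E9.5. The progenitor list summed to 98.0 to 132 CPM (7 of 8 members with a UMI, *Osr1* at 0) and then 193 to 565 CPM (8 of 8), and the cushion list to 40.9 to 78.1 CPM (6 of 7, *Sox9* at 0) and then 159 to 160 CPM (6 of 7, *Postn* at 0). The endothelial list went from 84.7 to 85.0 CPM (8 of 9, *Cdh5* at 0) to 94.5 to 160 CPM (4 of 9), and the epicardial list from 129 to 217 CPM (5 of 6, *Upk3b* at 0) to 28.3 to 98.3 CPM (4 of 6, *Tbx18* and *Upk1b* at 0). The blood list went from 851 to 963 CPM (6 of 7) to 207 to 658 CPM (5 of 7). None of these overlapped between the stages, and their part in the stage difference was not tested.

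In SHF 1, 2 of 10 tested members of the atrium and inflow list were higher at E9.5 (*Shox2* and *Tbx18*, against 1.5% of all genes called higher) and 2 were lower (*Stard10* and *Aldh1a2*, against 0.798% called lower), and the median log2 fold change of the list was 0.10 against 0.01 over all genes. *Shox2* rose from 90.7 and 47.0 CPM to 462, 634, 291 and 241 CPM (log2 fold change 2.45 ± 0.46), and *Tbx18*, the T-box factor of the venous pole, from 8.25 and 16.9 CPM to 171, 138, 106 and 29.0 CPM (2.86 ± 0.60, edgeR adjusted p = 0.0186). *Des* (desmin) rose by 2.73, *Col1a1* by 3.73 and *Smoc2* by 3.03. *Aldh1a2*, which makes retinoic acid, fell from 90.7 and 94.1 CPM to 0, 6.89, 15.1 and 48.3 CPM (−2.36 ± 0.50).

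Markers of other cell types moved with stage in these WT libraries as well. *Tbx18* is also a member of the epicardial marker list, and *Col1a1* of the cushion list, of which 2 of 4 tested members (*Col3a1* and *Col1a1*) were higher, against 1.5% of all genes called higher. The epicardial list summed to 38.5 to 43.3 CPM at E8.5 (5 of 6 members with a UMI, *Upk1b* at 0) and to 53.1 to 310 CPM at E9.5 (6 of 6), and the cushion list (7 of 7 at both) to 228 to 294 CPM and then 357 to 483 CPM. The blood list went from 1127 to 1876 CPM (7 of 7) to 181 to 671 CPM (5 of 7). None of these lists overlapped between the stages, and their part in the stage difference was not tested.

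Of 24 imprinted genes tested in SHF 1, 4 were higher (*Cdkn1c*, *Dlk1*, *Meg3* and *Airn*) against the 1.5% of all genes, with a median log2 fold change of 0.49 against 0.01 over all genes. *Cdkn1c*, a cyclin-dependent kinase inhibitor, rose from 525 and 421 CPM to 1676, 1060, 1923 and 1738 CPM (1.65 ± 0.22). Of the cardiomyocyte markers 0 of 7 tested were called, beside 2.3% of all genes, and this count is no result about the markers. In null SHF 1 cells 0 of 4736 genes were called by edgeR (0%), with 340 at an unadjusted p under 0.05, and the null libraries were wide apart, where *Shox2* stood at 370, 26.2, 205 and 70.5 CPM and *Aldh1a2* at 9.86, 74.3, 107 and 78.6 CPM. The difference in the number of calls between WT and null was not tested. The WT number was 185 without E9.5 WT D, 60 without WT A, 53 without WT C and 45 without E8.5 WT B.

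In SHF 2, 1 of 8 tested members of the atrium and inflow list was higher at E9.5 (*Nr2f2*, against 0.875% of all genes called higher) and 1 was lower (*Wnt2*, against 1.35% called lower). The median log2 fold change of the list was 0.19 against 0.00 over all genes. *Nr2f2* rose from 54.9 and 93.7 CPM to 246 and 287 CPM (log2 fold change 1.66 ± 0.28), *Myh6* from 1735 and 1780 CPM to 4151 and 3601 CPM (1.02 ± 0.15, edgeR adjusted p = 0.0036), *Myom1*, the M-band protein, by 1.28 and *Casq1*, a calcium store protein, by 1.61. *Tnnt1* rose from 30.9 and 66.0 CPM to 303 and 615 CPM (3.04 ± 0.41). *Hand1*, a transcription factor of the early left ventricle and outer curvature, fell from 44.6 and 63.9 CPM to 4.73 and 3.68 CPM (edgeR adjusted p = 0.00699), and *Tbx2*, a repressor of the chamber programme in the atrioventricular canal, by 2.79.

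Of the S and G2/M list 5 of 25 tested members were lower in SHF 2 at E9.5 (*Ube2c*, *Cdc20*, *Cdk1*, *Birc5* and *Rrm2*), against 1.35% of all genes called lower, with a median log2 fold change of −0.52 against 0.00 over all genes. *Cdk1* fell from 213 and 141 CPM to 52.0 and 40.5 CPM (−2.03 ± 0.33). The neuropeptide gene *Gal* fell from 75.4 and 49.0 CPM to 4.73 and 0 CPM and the adhesion gene *Vcam1* from 96.0 and 93.7 CPM to 4.73 and 33.1 CPM. The number of SHF 2 calls was 17 by DESeq2 and 135 without E9.5 WT D. In the same WT libraries the neural list (6 of 6 members with a UMI at both stages) summed to 100 to 120 CPM at E8.5 and 155 to 222 CPM at E9.5, and the epicardial list to 34.3 to 49.0 CPM (4 of 6, *Wt1* and *Upk3b* at 0) and 4.73 to 22.1 CPM (5 of 6, *Upk3b* at 0). The cardiomyocyte list (8 of 8 at both) went from 57860 to 58317 CPM to 51447 to 56863 CPM, and the endodermal list (4 of 7, then 6 of 7) from 10.3 to 36.2 CPM to 4.73 to 7.36 CPM. The progenitor list went from 51.4 to 61.7 CPM (8 of 8) to 161 to 169 CPM (6 of 8), and the blood list from 745 to 933 CPM (6 of 7) to 633 to 648 CPM (4 of 7). The skeletal muscle list was at 0 CPM and then at 3.68 to 4.73 CPM. None of the lists given here overlapped between the stages, and their part in the stage difference was not tested.

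In null SHF 2 cells 33 of 3722 genes were called (0.887%), of which 7 were also WT calls in the same direction (7.87% of the 89 WT calls, of which 71 were tested in null cells, and 21.2% of the null ones), among them *Nr2f2* (1.35 ± 0.33), *Tnnt1* (2.19 ± 0.34), *Vcam1* (−3.30 ± 0.48), *Hopx* (−2.87 ± 0.42) and *Gal* (−3.15 ± 0.59). *Shox2* rose by 2.65 in null SHF 2 cells, with 1.12 ± 0.36 in WT, which did not pass. In null SHF 2 cells the cardiomyocyte list went from 58215 to 59238 CPM to 41915 to 46787 CPM, the cushion list from 43.9 to 55.0 CPM to 121 to 149 CPM and the endodermal list from 0 to 3.37 CPM to 9.31 to 13.8 CPM. The progenitor list went from 33.7 to 41.2 CPM to 116 to 166 CPM and the blood list from 172 to 826 CPM to 9.31 to 31.1 CPM. None of these 5 lists overlapped between the stages, and their part in these calls was not tested. *Wnt2* fell from 374 and 402 CPM to 208 and 173 CPM in WT SHF 2 and stood at 277 and 337 CPM, then 349 and 340 CPM, in null.

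**Figure D5:**
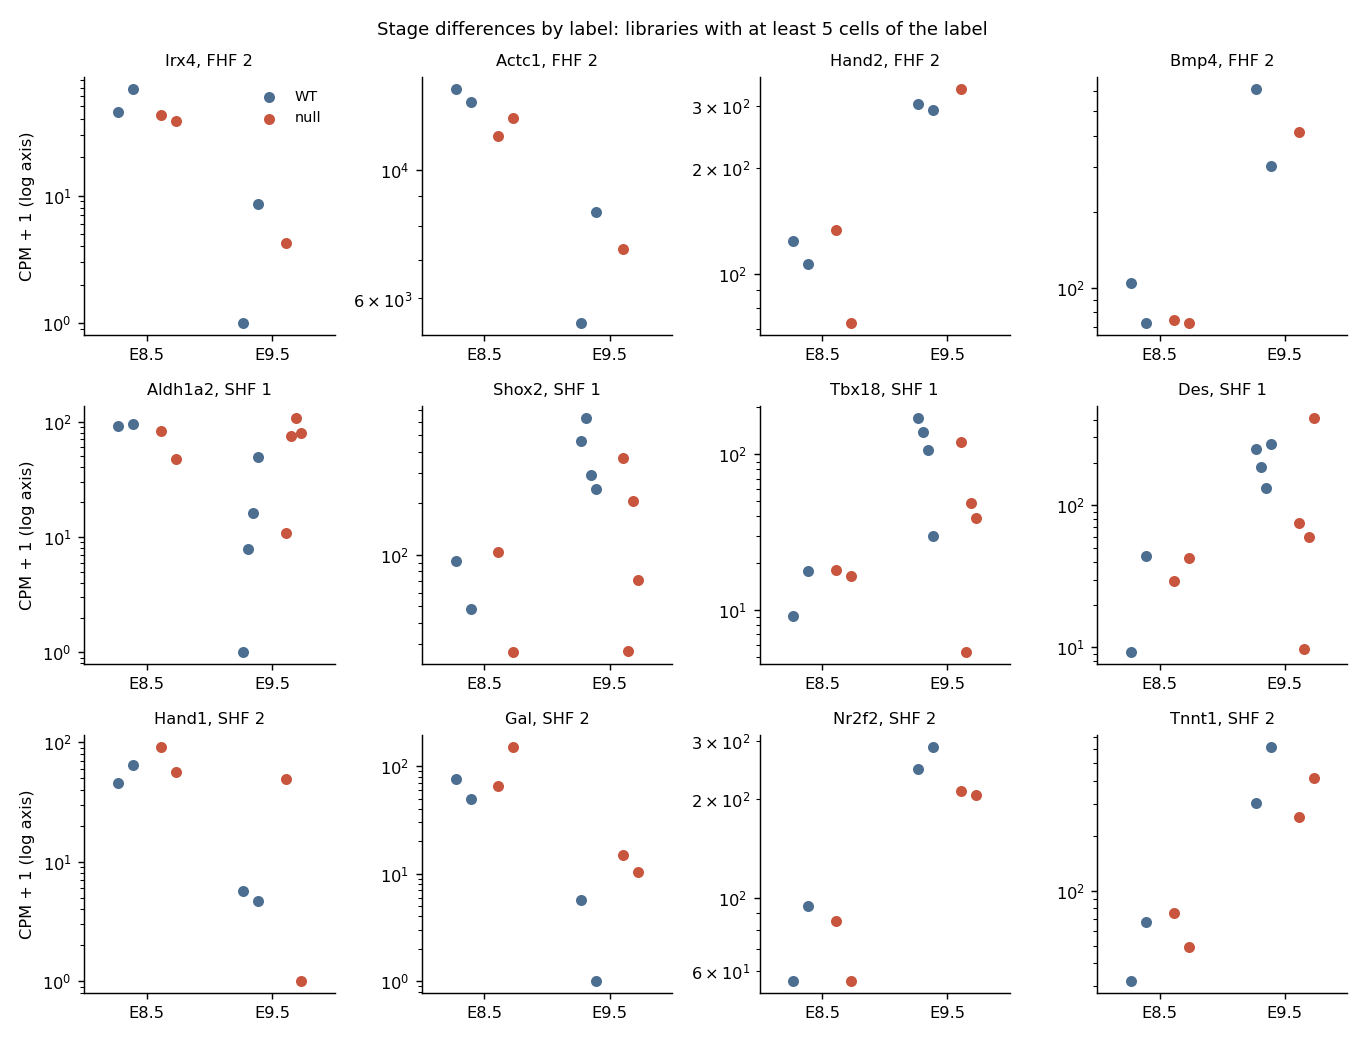
CPM + 1 (log axes) of 12 gene and label pairs at E8.5 and E9.5. Points are libraries with at least 5 cells of the label, blue WT and red null. *Irx4* is lower and *Hand2* and *Bmp4* higher at E9.5 in FHF 2, and in SHF 1 the 4 null libraries of E9.5 spread from 26.2 to 370 CPM in *Shox2*.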

How the data were processed

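Chimera cells were sorted by tdTomato and sequenced with the 10x 3′ kit. The authors mapped reads with Cell Ranger to mm10 with the tdTomato sequence added, filtered cells on UMIs, genes, mitochondrial and ribosomal shares, called doublets and transferred labels from an atlas. They deposited raw UMI counts per gene and cell, with the mitochondrial percent of UMIs and a label score per cell (also deposited).

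Groups came from the sample labels. No embryo pool is named for a library, so libraries were replicates without a block, and 0 columns with values of samples stayed unmapped. At E9.5 4 libraries per genotype stand beside 2 embryos in the study's account, so p-values measure the spread between libraries and not between embryos. WT-sorted cells with a tdTomato UMI (9 cardiomyocytes) were left out. UMIs were summed per library over cells of a label, or over the 4 labels where a library had more than 15 cells. Of 29453 genes 8176 (predicted, mitochondrial, ribosomal protein, haemoglobin, sex-linked markers, tdTomato) stayed out of tests. edgeR 4.0.16 in R 4.3.3 (filterByExpr, TMM, robust quasi-likelihood) was the test, with calls as defined in the results, and DESeq2 1.42.0 was an alternative. Single values used exact permutation tests (scipy 1.17.1). No label had more than 15 cells in 2 libraries of each genotype, so genotype fits of single labels, with at least 5 cells per library, were added after the data were seen, and the stage fits used the same minimum. Lists (27, of which 9 mark cell types) and members were chosen with earlier results of these data known, and the named genes are the defining genes, called genes whose groups do not overlap, and members of the lists. Intervals and limits of 0 counts cover counting error only. Marker lists that sum to a few CPM rest on a few UMIs per library. In an exact permutation test 2 against 2 libraries that are apart without overlap give p = 0.333 at best. The fits were tested on simulated data. Some results are not reported here.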

Additional observations from a re-analysis of the deposited data

Results flagged for a closer look

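In the 4 null libraries of E9.5 the highest cardiomyocyte share of a library, 1.78% in null B, lay far from the other 3 (1.20% to 1.29%), and so did its FHF 1 share of 1.08% (0.565% to 0.601% in the others). *H19* in the summed cardiomyocytes of null D, at 83.5 CPM, lay far above the other null libraries (2.13 to 5.93 CPM). In WT C at E9.5 the share of FHF 2 and SHF 2 cells was 0%, against 36.2% to 37.5% in the other WT libraries. These are 4 of 38 groups of 4 libraries examined, and chance gives about 1 in 20.

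The genotype effect differed between cardiomyocytes and other cells by the interaction test for *Mybpc3* (1.53 on the log2 scale), *Tcf15* (−3.13) and *Hspb2* (−1.06) at E8.5, and for *Blvrb* (2.08) and *Cpox* (1.45) at E9.5. The call was lost for *Tcf15* without null B (−2.38, edgeR adjusted p = 0.175) and for *Hspb2* without WT B (−0.92, edgeR adjusted p = 0.131), and without null B the difference of *Hspb2* was −0.93, under the limit of 1.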

How the results depend on the processing

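No paired analysis was possible because the files name no embryo pool or replicate number for a library. Sample titles do number the replicates of each group, but no label ties a library of the counts to 1 title. In the study each embryo pool gave 1 null and 1 WT sample, and its tests included the pool. Genotype fits and permutation tests here leave this pairing out, and its effect on the results was not tested. Leaving out 1 of 2 libraries assumes that the lone library varies like the others. The genes called between stages in WT cells were 57 in FHF 1, 9 in FHF 2, 63 in SHF 1 and 17 in SHF 2 by DESeq2, and 212, 64, 227 and 142 with no filter on low counts. Without 1 library they ran from 13 to 98, 19 to 159, 45 to 185 and 73 to 135. In the 4 labels summed at E8.5, 0 genes were called by DESeq2, 18 with no filter, 3 with no fold threshold, 0 in 1 fit over both stages, 3 in FHF 1 alone, 12 in SHF 2 alone, and 0 in FHF 2, in SHF 1 and in FHF 2 with SHF 2. Without 1 library the number was 4 to 30. At E9.5 it was 11 with no filter, 8 with no fold threshold, 2 in SHF 1 alone and 3 to 5 without 1 library. The test between cardiomyocytes and other cells gave 14 to 37 genes at E8.5 and 2 to 9 at E9.5, and that between stages 0 to 2.

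Without 1 library the log2 fold change of abundance at E8.5 ran from −0.13 to 1.09 in FHF 1, −0.82 to 0.64 in FHF 2, −0.77 to 0.14 in SHF 1 and −0.71 to 0.069 in SHF 2, at E9.5 from 0.18 to 0.62 in FHF 1, −0.56 to 0.34 in FHF 2, 0.31 to 0.97 in SHF 1 and −0.19 to 0.53 in SHF 2, and at E7.5 from 0.14 to 0.80 in FHF 1. The difference (null minus WT) in the share of SHF labels ran from −13.4 to −5.16 percentage points at E8.5 and from −2.48 to 5.30 at E9.5. That in the share of FHF 2 and SHF 2 ran from −15.6 to −2.72 points at E9.5 and −10.1 to −0.580 at E8.5, and that in mapped stage from −0.00563 to 0.000285 at E8.5 and from −0.0375 to 0.0453 at E9.5. That in the mitochondrial share at E8.5 ran from −0.0675 to 0.0125 points, and was 0.0343 with means over cells, and at E9.5 from −0.488 to −0.165 points. The label fits and the causes of these shifts were not tested further. *Grb10* at E9.5 was not called in 1 fit over both stages, and *Slc38a4* at E8.5 was not called in 9 of its 17 alternatives (8 kept the call). Few cells per library limit what could be detected.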
